A study of Mus musculus with 8 samples.

Results

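Aminoacyl-tRNA synthetases are the enzymes that attach each amino acid to its transfer RNA (tRNA), and cells keep one set in the cytosol and, for most amino acids, a separate nuclear-encoded set in mitochondria. The members described here were the genes of the deposited count table whose symbols follow the naming of these enzymes, together with the scaffold proteins *Aimp1* and *Aimp2*. The rule found 40 of the 11911 listed genes: 21 cytosolic synthetases, 17 mitochondrial synthetases, all of them marked by the suffix 2, and the 2 scaffolds. All 40 had enough reads to be tested, among 11317 tested genes in all.

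The libraries came from naïve CD4+ T cells purified from mouse spleens on the C57BL/6J background and cultured for 36 h with anti-CD3, anti-CD28, transforming growth factor–β (TGF-β), anti–IFN-γ and anti–IL-4, which polarizes them toward induced regulatory T cells (iTregs). The 4 control libraries (WT1 to WT4) were from Foxp3YFP-Cre mice, and the 4 knockout libraries (KO1 to KO4) were from TDRD3fl/fl/Foxp3YFP-Cre mice. All 8 libraries therefore carry the Cre reporter allele. TDRD3 is a Tudor domain protein that reads methylated arginines, and the study asked how its loss changes iTreg differentiation. Cre is driven by *Foxp3*, so the floxed gene is deleted only in cells that have switched *Foxp3* on. No sort of YFP+ cells before RNA isolation is described, so a library can hold cells that were never deleted. The ages and sexes of the mice are not given in the sources used here.

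As background, charging proceeds in the same way for every member: the enzyme activates its amino acid with ATP and passes it to the matching tRNA, which the elongation factor eEF1A then carries to the ribosome. In mammals, 8 cytosolic synthetases and 3 auxiliary proteins sit together in the multisynthetase complex. When charging falls short, uncharged tRNA activates the kinase GCN2 (*Eif2ak4*), which phosphorylates eIF2 and favours translation of the transcription factor ATF4. ATF4 in turn induces amino acid transporters, amino acid synthesis enzymes and many of the cytosolic synthetases, but few of the mitochondrial ones. Activated T cells enlarge and divide quickly and raise both amino acid uptake and tRNA charging.

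The deposited counts of the listed genes summed to between 13258239 and 16001676 per library. *Tdrd3* itself reached 9.95 to 18.8 normalized CPM (counts scaled to a common library size) in controls and 10.7 to 13.7 in knockout libraries. Its fitted level was 21.4% lower in knockout libraries (edgeR, unadjusted p = 0.037, adjusted p = 0.496), although the library labelled WT3 lay below every knockout library. By the 500 most variable genes KO1 and KO4 formed a branch apart from the other 6 libraries, so values without them are given below. All 8 T cell markers looked for were in the table, as were 3 of 6 B cell markers, 1 of 7 myeloid, 2 of 4 NK cell and 1 of 5 erythroid markers, at summed levels of at most 4.28 normalized CPM in any library, and *Ms4a1*, *Itgam* and *Csf1r* were among those absent. Both CD8 T cell markers were present and lower in knockout libraries at an unadjusted edgeR p under 0.05, with sums of 7.72 to 21.8 normalized CPM in controls, the highest in the library labelled WT3, and of 6.68 to 8.35 in knockout libraries. Summed CPM of the 6 Treg markers was lower in knockout libraries, at 3361 to 3475 against 3581 to 3717 in controls. *Il2ra* made up most of this sum, with means of 2268.5 in controls and 2075.6 in knockout libraries. By fitted level 5 of the 6 were lower and 1 was higher. At an unadjusted edgeR p under 0.05, 4 of them (*Foxp3*, *Il2ra*, *Ikzf2* and *Ikzf4*) were lower, as were 556 of the 11317 tested genes. The part of these shifts in the synthetase values was not tested.

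All 21 cytosolic synthetases had a higher fitted level in knockout than in control cultures, by small amounts. Their log2 fold changes ran from 0.02 for *Wars1* to 0.14 for *Tars3*, with a median of 0.0747, which is a level 5.31% higher. In contrast, the 17 mitochondrial enzymes were divided, with 8 higher and 9 lower and a median of −0.00908. Over all tested genes 50.6% were higher and the median was 0.00132. No member passed an adjusted p of 0.05 (edgeR quasi-likelihood test, Benjamini-Hochberg correction across the 11317 genes), the lowest being 0.189 for *Nars1*. That call was made for 0.265% of tested genes. In bulk libraries such as these, more cells of a type and more RNA per cell cannot be told apart.

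At an unadjusted p under 0.05, 7 members were called by edgeR, all of them cytosolic and all higher in knockout cultures. Among them were *Nars1*, *Eprs1*, *Lars1*, *Tars1*, *Farsb* and *Cars1*. Among all tested genes 9.3% passed this threshold in either direction and 4.38% in the direction of higher knockout levels. DESeq2 likewise called 7 members at an unadjusted p under 0.05, which 8.28% of tested genes passed, and 0 after adjustment, where it called 81 genes in all. The 4 knockout libraries all lay above the 4 controls for 5 members, *Nars1*, *Eprs1*, *Lars1*, *Tars1* and *Sars1*, compared with 2.25% of tested genes in that direction and 4.89% in either. When the library labelled WT1 was left out, 3 of 40 members remained at an unadjusted p under 0.05, *Nars1*, *Eprs1* and *Lars1*, and 7.49% of all tested genes passed it in that fit. Without KO1 and KO4 the cytosolic median was 0.049, with 18 of 21 enzymes higher. The mitochondrial median was then 0.025, with 14 of 17 enzymes higher, and 5660 of the 11505 tested genes were higher. In that fit 2 cytosolic genes, *Farsb* among them, were past the unadjusted threshold, which 3.91% of tested genes passed.

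**Figure D1:**
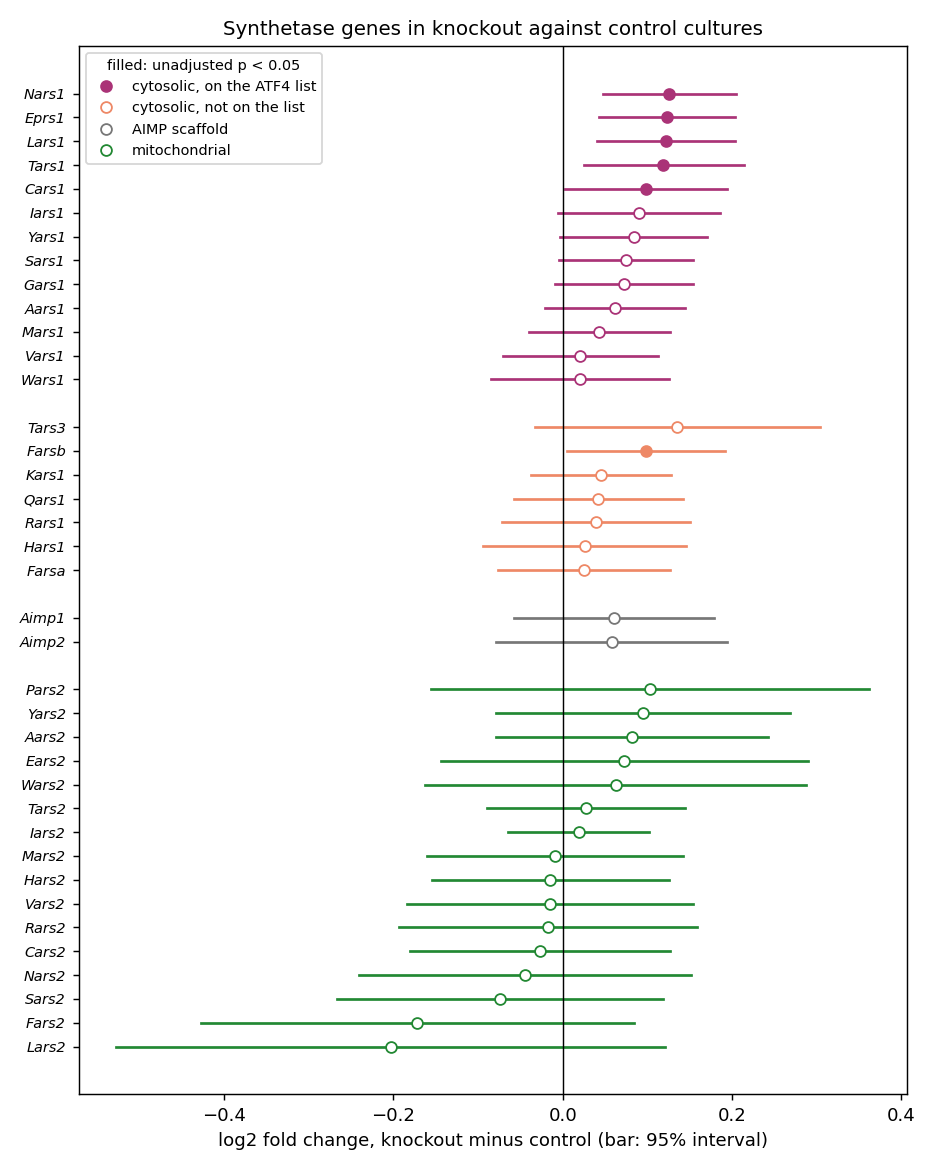
Log2 fold change (knockout minus control, x axis) of the members reported by name, with its 95% interval as a bar, grouped into ATF4-listed cytosolic enzymes, other cytosolic enzymes, scaffolds and mitochondrial enzymes. Filled circles mark members with an unadjusted edgeR p under 0.05, and every cytosolic circle drawn lies to the right of 0, while the mitochondrial circles fall on both sides.

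*Nars1*, the asparaginyl-tRNA synthetase, stood at 409, 400.1, 420.0 and 415 normalized CPM in WT1 to WT4. The knockout libraries KO1 to KO4 had 461, 437, 436 and 462, so that every knockout library lay above every control. KO1 and KO4 were the highest pair. The means were 411 ± 8.6 and 449 ± 14.4 (SD, n = 4 each), a level 9.16% higher in knockout cultures. On the log2 scale *Nars1* differed by 0.13 (SE 0.0374, edgeR, unadjusted p = 0.00317).

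*Eprs1*, which encodes the fused enzyme for glutamate and proline and anchors one side of the multisynthetase complex, lies at chr1:185095241-185160557 of GRCm39 on the plus strand. Its control libraries held 441, 436, 461 and 471 normalized CPM, and the knockout libraries 497, 489.7, 477 and 506. The groups did not overlap, and the gap between the highest control and KO3 was small beside the difference of the means. The means were 452 ± 16.3 and 492 ± 12.2 (SD, n = 4 each), an increase of 8.88% with a 95% interval of 3.02 to 15.1% (edgeR, unadjusted p = 0.00454, adjusted p = 0.223).

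*Lars1* encodes the cytosolic leucyl-tRNA synthetase, which is also known as a leucine sensor upstream of mTORC1. The controls were close together, with 240.5, 245, 239 and 245 normalized CPM. The knockout libraries stood at 265, 252, 271 and 268, KO2 being the lowest and nearest to the controls. The level was 8.82% higher, with a 95% interval of 2.91 to 15.1% (edgeR, unadjusted p = 0.00509, adjusted p = 0.234).

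*Tars1*, the main cytosolic threonyl-tRNA synthetase, lies at chr15:11382387-11399751 on the minus strand. It had 192, 185, 210.4 and 207 normalized CPM in controls and 218, 210.5, 216 and 218 in knockout libraries. The groups touched, since KO2 lay only just above the library labelled WT3, and with DESeq2 size factors the number of members without overlap was 4 rather than 5. *Tars1* differed by 0.12 on the log2 scale (SE 0.0452, edgeR, unadjusted p = 0.016, adjusted p = 0.38). *Sars1*, the seryl-tRNA synthetase that also charges the selenocysteine tRNA, had 313, 297, 307 and 309.6 normalized CPM in controls and 334, 315, 323.5 and 318.5 in knockout libraries. Its 2 groups were separate by a narrow gap between WT1 and KO2, and the increase of 5.31% had an edgeR unadjusted p of 0.0628. For each of these 5 genes without overlap the two-sided exact permutation p was 0.0286, the smallest that 4 against 4 libraries can give.

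Other members past the unadjusted threshold showed some overlap. *Farsb* encodes the β subunit of the cytosolic phenylalanyl-tRNA synthetase. It stood at 142, 144, 152.5 and 145 normalized CPM in controls and at 159.9, 162, 156 and 147 in knockout libraries, 7.05% higher with an edgeR unadjusted p of 0.04. Its partner subunit *Farsa*, with which it forms an α2β2 enzyme, differed by 1.77% (95% interval, −5.15 to 9.2%). *Cars1*, the cysteinyl-tRNA synthetase, had 128, 134, 132 and 125 normalized CPM in controls and 140.0, 131, 146 and 139 in knockout libraries, 7.05% higher, with KO2 inside the control range. The edgeR unadjusted p of *Cars1* was 0.0442.

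**Figure D2:**
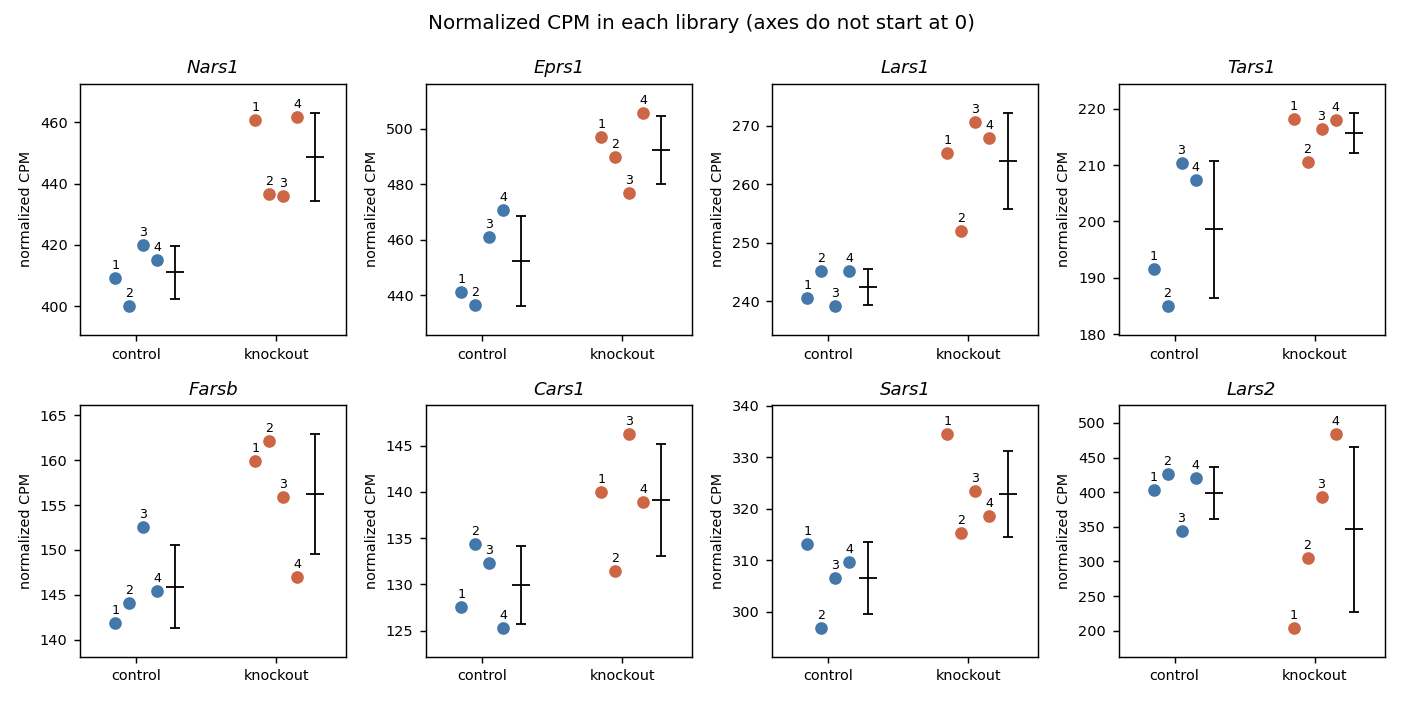
Normalized CPM (y axis, not starting at 0) in each library for *Nars1*, *Eprs1*, *Lars1*, *Tars1*, *Farsb*, *Cars1*, *Sars1* and *Lars2*. Points are numbered by replicate and the bar gives mean ± SD (n = 4), and the 4 knockout points of *Nars1*, *Eprs1*, *Lars1*, *Tars1* and *Sars1* all lie above the 4 controls, whereas those of *Lars2* run from 204 to 483.

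The cytosolic enzymes with the next largest values did not pass the unadjusted threshold. *Tars3*, a second cytosolic threonyl-tRNA synthetase, had 22.0, 23.1, 23.6 and 21.4 normalized CPM in controls and 24.6, 24.5, 22.7 and 27.1 in knockout libraries. Its fold change was the largest among the cytosolic enzymes, but at 302 to 399 reads per library its 95% interval was wide, from −2.28 to 23.5%. *Iars1*, the isoleucyl-tRNA synthetase of the complex, had 350.0, 365, 350.1 and 384 normalized CPM in controls and 388, 375, 363 and 416 in knockout libraries. *Yars1*, the tyrosyl-tRNA synthetase, had 183, 188, 187 and 197 in controls and 208, 193, 198 and 201 in knockout libraries, KO2 alone falling below the highest control. *Gars1* and *Kars1*, whose products serve both cytosol and mitochondria, were 5.13% and 3.18% higher with intervals that include 0. *Vars1*, the valyl-tRNA synthetase, differed by 1.46% (95% interval, −4.72 to 8.04%), and *Wars1*, the tryptophanyl-tRNA synthetase, by 1.45% (−5.67 to 9.11%).

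The cytosolic enzymes were then divided by a list of textbook ATF4 targets. Of the 13 ATF4-listed enzymes all 13 were higher, with a median of 0.0838 (5.98%), and 5 were past the unadjusted threshold. The 8 enzymes outside the list were also all higher, with a median of 0.0437 (3.08%), and 2 of them, *Farsb* included, were past it. Among all tested genes 4.38% were higher past that threshold. All 5 members without overlap were on the list. Without KO1 and KO4 the median of the ATF4-listed enzymes was 0.049, the same as that of all cytosolic enzymes. The 2 catalytic families of synthetases, class I and class II, which differ in the fold of the active site, gave medians of 0.0422 and 0.0721, with 14 of 19 and 15 of 19 genes higher. Genes in the same range of mean level as the cytosolic enzymes (23.6 to 522 CPM, 6814 genes) had a median of −0.00116, with 49.5% higher and 4.2% higher at an unadjusted p under 0.05.

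In the multisynthetase complex, all 11 components were higher, with a median of 0.0605. 4 of them had an unadjusted edgeR p under 0.05, *Eprs1*, *Lars1* and *Eef1e1* among them, and 4.38% of all tested genes were higher at that threshold. *Eef1e1* (also called AIMP3), the third auxiliary protein and not a member by name, had 84.7, 80.5, 92.2 and 81.7 normalized CPM in controls and 97.6, 93.3, 89.8 and 95.5 in knockout libraries, 10.9% higher (edgeR, unadjusted p = 0.0109, adjusted p = 0.324). The scaffolds *Aimp1* and *Aimp2*, which hold the complex together, had log2 fold changes of 0.06 each, with standard errors of 0.0566 and 0.0652. Exons of *Aimp2* share 64.61% of their bases with *Eif2ak1* on the opposite strand. Since the strandedness of the counting is not given in the sources used here, reads of the 2 genes may not be separable.

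Per library, the cytosolic enzymes summed to 5025, 5072, 5147 and 5170 normalized CPM in WT1 to WT4 and to 5481, 5272, 5337 and 5430 in KO1 to KO4. Every knockout library was above every control. The mean sums were 5103 ± 66.7 and 5380 ± 93.7 (SD, n = 4 each), 5.42% higher in knockout cultures, and no test was made of this sum. KO2 was the lowest of the knockout libraries on this sum. Relative to the control mean, the median of the ATF4-listed enzymes was 0.041 in KO2 and 0.044 in WT4, so on this measure the genotypes overlapped.

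**Figure D3:**
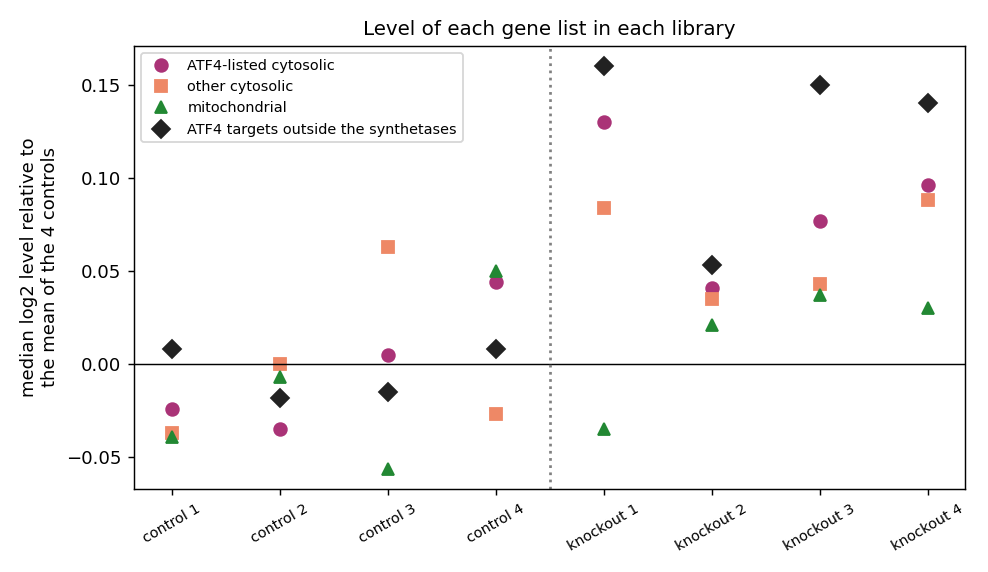
Median log2 level of each gene list relative to the mean of the 4 controls (y axis) in each of the 8 libraries (x axis). The ATF4 targets outside the synthetases lie at 0.053 to 0.16 in the knockout libraries, the ATF4-listed enzymes at 0.041 to 0.13 and the mitochondrial enzymes at −0.035 to 0.037, while controls lie between −0.056 and 0.063.

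To show where the letters of the ATF4 motif occur, promoter windows of 300 bases (250 before and 50 after the start of the canonical transcript in GENCODE M39) were searched on both strands of GRCm39. The motif TGATGNAA, the core bound by ATF4 with a C/EBP partner, was found in 5 of 21 cytosolic enzymes (23.8%), in 0 of 17 mitochondrial enzymes and in 279 of 11910 windows of listed genes (2.34%). Its stricter form TGATGCAA, which is contained in the first, was in 4 of 21 cytosolic windows (19.0%) and in 0.546% of all. For comparison, the E-box CACGTG, the same on both strands, was in 4 of 21 (19.0%), 0 of 17 and 10.2%. The 5 genes with TGATGNAA were all ATF4-listed enzymes. All 13 ATF4-listed enzymes and all 8 cytosolic enzymes outside the list were higher in knockout cultures. A part of the motif in these values was not tested. A site of each of the 5 genes is shown. Each is written 5′ to 3′ along the gene, with the motif in capitals, which reads as its reverse complement because it lies on the other strand.
Tars1, chr15:11399741-11399770, minus strand: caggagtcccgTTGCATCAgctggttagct
Cars1, chr7:143153782-143153811, minus strand: cggcgccgcggTTGCATCAgattctggaag
Iars1, chr13:49835602-49835625, plus strand: cactgtcagtaTTGCATCAcctcc
Aars1, chr8:111760472-111760501, plus strand: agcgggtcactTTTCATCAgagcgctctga
Gars1, chr6:55014945-55014974, plus strand: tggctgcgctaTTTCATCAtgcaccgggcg

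The *Tars1* site ended at the base just before the transcript start, and the *Aars1* site shown began 25 bases before it, whereas those of *Gars1*, *Cars1* and *Iars1* began 12, 27 and 37 bases downstream of the first transcribed base, in exon 1. *Tars1* and *Cars1* were past the unadjusted threshold, and *Iars1*, *Gars1* and *Aars1* were 6.44%, 5.13% and 4.4% higher without passing it. Exons of *Aars1* share 22.96% of their bases with *Exosc6* on the same strand. *Exosc6* is not among the listed genes, and its reads may not be separable from those of *Aars1*. None of *Nars1*, *Eprs1*, *Lars1* and *Sars1*, which did not overlap between genotypes, held TGATGNAA in this window. A match describes the letters only.

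Mitochondrial synthetases charge the tRNAs encoded in mitochondrial DNA. With all 8 libraries no member of this set passed the unadjusted threshold, and the lowest adjusted edgeR p was 0.762. Their median fold change took no fixed sign, since it ranged from −0.014 to 0.026 when single libraries were left out and was 0.025 without KO1 and KO4. Their summed level was 1018, 1039, 951 and 1070 normalized CPM in the controls and 817, 930, 1043 and 1106 in knockout libraries. The knockout libraries spread more widely than the controls. Without *Lars2* the sums were 614, 613, 607 and 649 against 613, 625, 650.0 and 622, and the knockout mean differed by 1.1% rather than by −4.47%. Genes in the range of mean level of the mitochondrial enzymes (13 to 372 CPM, 7939 genes) had a median of −0.000494. Precision was lower than for the cytosolic enzymes, with a median standard error of 0.0829 against 0.0433 on the log2 scale, so changes of the size seen for the cytosolic set were harder to detect here.

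*Lars2*, the mitochondrial leucyl-tRNA synthetase, lies at chr9:123195992-123291731 on the plus strand and had the largest absolute fold change of any member. It had 404, 426, 345 and 420.5 normalized CPM in controls and 204, 305, 393 and 483 in knockout libraries. KO1 and KO2 lay below every control, KO3 lay among them and KO4 lay above them all. The knockout SD of 119.6 exceeded the control SD of 37.3, and the fold change was −0.20 on the log2 scale (SE 0.155, edgeR, unadjusted p = 0.205, adjusted p = 0.792). Leaving out KO1 moved the log2 fold change of *Lars2* to −0.019. Leaving out KO4 moved it to −0.408, past the unadjusted threshold (edgeR, unadjusted p = 0.00639, adjusted p = 0.446), and without both libraries it was −0.195 (edgeR, unadjusted p = 0.0401, adjusted p = 1.0). KO1 and KO4, the libraries that branched apart together, thus stood at opposite ends for this gene.

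Other mitochondrial enzymes with larger values overlapped between genotypes. *Fars2*, the phenylalanyl enzyme, had 17.0, 12.9, 17.8 and 13.2 normalized CPM in controls and 14.6, 13.5, 14.4 and 11.6 in knockout libraries, 11.2% lower (95% interval, −25.6 to 5.98%). *Pars2*, the prolyl enzyme, was counted with 155 to 207 reads per library and stood at 11, 13.8, 10.9 and 14.7 in controls and 12.1, 13, 15.6 and 13.4 normalized CPM in knockout libraries. *Yars2*, the tyrosyl enzyme, had 25.0, 30.2, 32.4 and 27.2 in controls and 32.0, 29.1, 29.3 and 32.1 in knockout libraries, and it shares 50.25% of its exon bases with *Dnm1l* on the opposite strand. *Iars2*, the isoleucyl enzyme, was 1.34% higher with an interval of −4.35 to 7.36%, although 38.4% of its exon bases overlap *Rab3gap2*.

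Pairs of a cytosolic and a mitochondrial enzyme were formed for 15 amino acids, leaving out glutamate and proline, whose cytosolic enzyme is the fused *Eprs1* beside a separate *Ears2* and *Pars2*. Per kilobase of the canonical transcript, the cytosolic enzyme had the higher mean control level in 14 pairs, with a median ratio of 11.5. *Nars1* and *Nars2* were farthest apart, at 149.8 and 2.67 CPM per kb, a ratio of 56.1. The exception was leucine, for which *Lars2*, at 101 CPM per kb, stood above *Lars1*, at 60.7. *Tars1* and *Tars2* were close, at 49.6 and 33.0 CPM per kb. In fold change, the cytosolic enzyme was above its mitochondrial partner in 12 of the 15 pairs, and alanine, tryptophan and tyrosine were the exceptions.

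**Figure D4:**
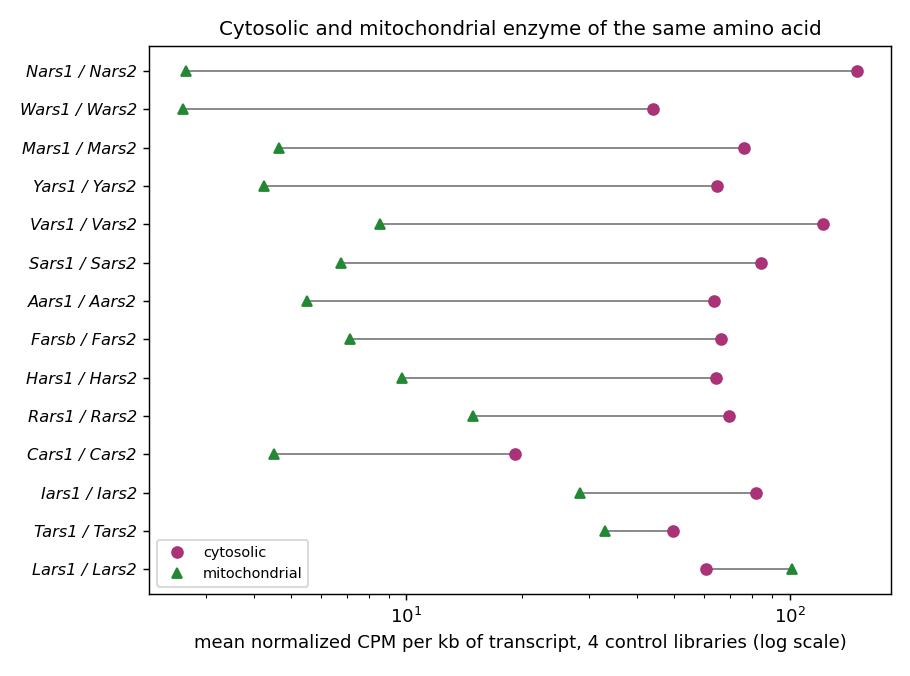
Mean normalized CPM per kilobase of transcript in the 4 control libraries (x axis, log scale) for the cytosolic (circles) and mitochondrial (triangles) enzyme of the amino acids whose pairs are reported by name (y axis). The circle lies to the right in every pair drawn except leucine, for which the mitochondrial enzyme is higher, at 101 against 60.7 CPM per kb.

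Partners of the synthetases in tRNA charging, tRNA maturation and delivery to the ribosome were examined as a list of 25 genes. Of these, 19 were higher and the median was 0.0685, with 5 higher and 0 lower at an unadjusted edgeR p under 0.05. Among all tested genes 4.38% were higher at that threshold. *Dtd1*, a deacylase that removes D-amino acids from tRNA, had 21.8, 20, 21.3 and 18.5 normalized CPM in controls and 22.1, 25.2, 23.3 and 25.9 in knockout libraries, 18.4% higher (edgeR, unadjusted p = 0.0104). *Xpot*, which exports tRNA from the nucleus and is also an ATF4 target, was 6.96% higher, at 206, 212, 211 and 219.7 in controls against 236, 219.7, 221.5 and 230.2 in knockout libraries, KO2 standing level with WT4 (edgeR, unadjusted p = 0.0276). *Eef1a1*, which delivers charged tRNA, and *Eef1b2*, its exchange factor, were 7.19% and 6.4% higher, and *Eef1e1* is given above. None of the 5 had an adjusted p under 0.05.

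ATF4 targets outside the synthetases were set beside them. Of 30 such genes, 27 were higher, the median was 0.125 (9.05%), and 13 were higher and 0 lower at an unadjusted edgeR p under 0.05. Among all tested genes 50.6% were higher, and 4.38% were higher at that threshold. *Asns*, the asparagine synthetase, had 126, 126, 129 and 138 normalized CPM in controls and 176, 143, 170.1 and 183 in knockout libraries. It was 29.7% higher (edgeR, adjusted p = 0.011), KO2 again being the knockout library nearest to the controls. *Cth*, which makes cysteine from cystathionine, and *Trib3*, a pseudokinase that restrains ATF4, were 42.8% and 22.4% higher, with edgeR adjusted p-values of 0.0147 and 0.0439. Without KO1 and KO4 the median of these targets was 0.123, and 8 were past the unadjusted and 0 past the adjusted threshold. In that fit 3.91% of all tested genes were past the unadjusted threshold. Upstream, none of the 10 genes for eIF2 kinases, their regulators and ATF4 itself passed the unadjusted threshold. On the log2 scale *Atf4* mRNA differed by 0.04 (SE 0.0413) and *Eif2ak4* by 0.11 (SE 0.0662), and ATF4 is regulated mainly in translation, which these libraries do not measure.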

How the data were processed

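RNA was measured in 8 libraries, 4 per genotype, depleted of ribosomal RNA. The authors aligned reads to GRCm39 with STAR 2.7.8a, obtained estimated counts for genes by expectation-maximization in Partek Flow and deposited them filtered but not normalized. Strandedness and annotation version are not given in the sources used here. Of the deposited values 43% were not whole, and they were rounded. The labels give 4 libraries per genotype whereas the study's methods give fewer biological replicates, so whether each library is a separate mouse is not certain, and p-values measure the spread between these libraries.

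Libraries were scaled with TMM (factors 0.993 to 1.00), genes with low counts were removed by filterByExpr (minimum count 10), and genotype was tested with the quasi-likelihood F-test of edgeR 4.0.16 in R 4.3.3, two-sided, and p-values were corrected by Benjamini-Hochberg across every gene kept. The script was tested on simulated data. Single genes were also compared by a two-sided exact permutation test on log2(CPM + 0.5). Normalized CPM is the count scaled to a common library size. Alternatives used DESeq2 1.42.0, other scalings, filters, a replicate block and libraries left out. Replicate libraries differed by more than sampling noise (chi-square per df, 2.59 to 6.18), so none was a duplicate. No column of other samples was present (0).

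Members and lists were chosen with earlier results of these data known. Values in every library are given for members with an unadjusted p under 0.05, then those without overlap, then, up to 16 genes, those with the largest fold changes. Genes of other lists are named at an unadjusted p under 0.05 or as defining genes. The ATF4 lists come from general knowledge. Gene lengths and promoter windows come from GENCODE M39, which matched 11910 of 11911 gene identifiers. The gene ends printed are the deposited stop minus 1. Some members, markers and sites are not reported individually here.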

Additional observations from a re-analysis of the deposited data

Results flagged for a closer look

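In 3 of the 80 combinations of member and genotype, 1 library stood apart from the other 3 by Dixon's test at the 95% level, which chance gives in about 1 in 20. *Sars2*, the mitochondrial seryl-tRNA synthetase, had 23.8 normalized CPM in the library labelled WT4 against 19.8 to 20.4 in the other controls. *Cars2*, the mitochondrial cysteinyl-tRNA synthetase, had 39.1 in WT4 against 32.0 to 32.9. *Rars2*, the mitochondrial arginyl-tRNA synthetase, had 28.9 in WT2 against 33.3 to 33.9. Each of the 3 is a control library, and *Sars2*, *Cars2* and *Rars2* were not past the unadjusted threshold between genotypes.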

How the results depend on the processing

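Over the 15 alternatives no member had an adjusted p under 0.05, and the lowest was 0.0699, for *Nars1*. *Nars1*, *Eprs1* and *Lars1* kept an unadjusted p under 0.05 in 14 of 15, the exception for each being the fit without KO1 and KO4, *Tars1* in 12, and *Farsb* and *Cars1* in 8. Without KO1 and KO4 the members at an unadjusted p under 0.05 numbered 3, and 3.91% of all tested genes passed that threshold. In that fit the median of mitochondrial members was 0.025, and the log2 fold change reversed for *Hars1* (−0.023), *Farsa* (−0.009), *Rars1* (−0.008), *Nars2* (0.008), *Hars2* (0.016), *Rars2* (0.103), *Vars2* (0.056), *Mars2* (0.007) and *Cars2* (0.001), and the cause was not tested. With single libraries left out, the members at an unadjusted p under 0.05 ranged from 3 (without WT1) to 7, those without overlap from 4 to 8 (without WT3 or KO2, where the share of all tested genes was 9.16% and 10.1% against 4.89% with all libraries), and the mitochondrial median from −0.014 to 0.026 (without WT4). Reversals under such omissions gave log2 ranges of −0.022 to 0.08 for *Hars1*, −0.009 to 0.043 for *Farsa*, −0.002 to 0.064 for *Vars1*, −0.046 to 0.003 for *Hars2*, −0.016 to 0.06 for *Wars1*, −0.014 to 0.049 for *Tars2*, −0.089 to 0.043 for *Rars2*, −0.002 to 0.126 for *Ears2*, −0.091 to 0.041 for *Vars2*, −0.048 to 0.07 for *Mars2* and −0.056 to 0.043 for *Cars2*.

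With the replicate block, 6 of 40 members were at an unadjusted p under 0.05, as were 8.75% of all tested genes, and 0 at an adjusted p under 0.05, *Lars2* among the 6 (log2 fold change −0.261). Same-numbered libraries correlated at −0.052 to 0.064. Only 1 library, of number 4, correlated best with the same-numbered library of the other genotype, so the numbers were not taken as pairs. Over all tested genes the block called 87 genes at an adjusted p under 0.05, DESeq2 81 and the unblocked edgeR test 30.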
